A study of Mus musculus with 6 samples.

Results

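Autophagy genes were examined in regulatory T (Treg) cells that carried or lacked the microRNA gene miR-142. The set held 36 genes of the core autophagy machinery, its cargo receptors and its transcriptional control, chosen by name from the RNA-seq count matrix of 24421 genes, and all 36 were found there. CD4+YFP+ Treg cells had been sorted from the spleens of female C57BL/6 mice aged 8 to 11 weeks. Both groups carried Foxp3Cre, in which the Foxp3 promoter drives a fusion of Cre recombinase with yellow fluorescent protein, and so marks and recombines Foxp3-expressing cells. The WT group was Foxp3Cre and the KO group was Foxp3Cre miR-142fl/fl, with 3 libraries from 3 mice in each group and no treatment of the sorted cells. The paper reports a fatal systemic autoimmune disease in the KO mice. It names as a possible caveat that this inflammation could itself alter Treg cell gene expression. Loss of miR-142 and the disease cannot be told apart in this comparison.

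Autophagy encloses cytoplasm in a double membrane, the autophagosome, and delivers it to the lysosome for breakdown. The Ulk kinase complex starts the process, the class III PI3-kinase marks the membrane with PI3P, WIPI and Atg2 proteins and the Atg9 vesicles feed its growth, and 2 ubiquitin-like conjugation systems attach the Atg8 family proteins to it, where cargo receptors bind. Treg cells are known to need autophagy for their survival and lineage stability, and miRNAs repress transcripts mostly through short matches between the miRNA seed and the 3′ UTR.

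The mature products of the deleted gene on chromosome 11 are shown because their seeds, bases 2 to 8 and in capitals, define the sites searched in the autophagy genes (RefSeq, GRCm38.p6, plus strand, 5′ to 3′).
miR-142a-3p, chr11:87756903-87756925: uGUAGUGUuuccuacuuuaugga
miR-142a-5p, chr11:87756867-87756887: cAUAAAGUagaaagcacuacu

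Matches were ACACTAC to the miR-142-3p seed, AACACTA to the same miRNA shifted by 1 base, and ACTTTAT to the miR-142-5p seed, each on the transcript strand of the longest annotated 3′ UTR of a gene. The first pair overlap wherever AACACTAC occurs. A miR-142-3p or shifted match was present in the 3′ UTRs of 7 of the 35 autophagy genes tested: Atg16l1, which has been reported as a miR-142-3p target, the proteases Atg4b, Atg4c and Atg4d, the PI3P effectors Wipi1 and Wipi2, and the cargo receptor Nbr1. Each site is printed on the transcript strand with 10 bases to either side and the match in capitals (GRCm38, GENCODE vM21; coordinates are those of the capitals).
Atg16l1, chr1:87791521-87791527, plus strand: tgggtgggaaACACTACtaactctgac
Atg4b, chr1:93789325-93789331, plus strand: gacatatggaACACTACaacctgaggg
Atg4c, chr4:99258812-99258818, plus strand: tgctaatggaACACTACatcaactgca
Atg4d, chr9:21277300-21277306, plus strand: accacccctaACACTACaatccatatc
Wipi1, chr11:109576760-109576766, minus strand: ctctatacatACACTACcttagttccc
Wipi2, chr5:142668080-142668086, plus strand: gtgtggtctcACACTACaccccaggcc
Wipi2, chr5:142669657-142669663, plus strand: gactccaataAACACTAaaactgaaag
Nbr1, chr11:101581762-101581768, plus strand: aaggcaacacAACACTAaagattttat

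The targeted locus was read first. Mir142b, the annotation antisense to Mir142, had 9.05, 4.14 and 5.81 CPM (counts scaled to the TMM library size) in WT replicates 1 to 3 and 0.389, 0.379 and 0.342 CPM in KO replicates 1 to 3. All KO libraries lay below all WT libraries, by -4.07 on the log2 scale (SE 0.39, FDR = 0.00132). Mir142 itself had 0 counts in every library. Its annotation (87756864 to 87756927, plus strand) lies wholly within Mir142b (87756841 to 87756955, minus strand). Counting without strand could not separate them, so this 0 says nothing about either group, and Mir142b counts may hold reads of either strand. Total counts were 15493795 to 24042994 in WT and 13883069 to 18601425 in KO, so that a floor of 3 counts corresponded to 0.125 to 0.216 CPM. The 7 Treg markers examined summed to 4820, 5500 and 5550 CPM in WT and 6760, 7560 and 7690 CPM in KO replicates 1 to 3. Every KO library lay above WT for Il2ra (means 756 and 2580 CPM in WT and KO), Tnfrsf18 (184 and 324) and Foxp3 (566 and 689). Every KO library lay below WT for Cd4 (1020 and 876 CPM) and Cd3e (679 and 593), and the groups overlapped for Ctla4 and Ikzf2. KO replicate 1 stood apart, with the highest level of all 12 macrophage and monocyte markers, all 10 neutrophil markers and all 8 B cell markers. The macrophage and monocyte markers summed to 2890 CPM there, 79.3 CPM in KO replicate 2, 19.1 CPM in KO replicate 3 and 7.76 to 11.6 CPM in WT. Neutrophil markers summed to 952 CPM in KO replicate 1 against 5.06 CPM or less elsewhere, and B cell markers to 306 CPM against 9.24 to 41.8 CPM. The CD8 and NK cell list summed to 86.7 CPM there and 20.1 to 55.9 CPM elsewhere, and the erythroid list to 35.7 CPM and at most 3.63 CPM. Genes of the CD8 and NK cell list went opposite ways. Eomes was higher in every KO library (29.8 to 42 CPM, against 4.35 to 6.69 CPM in WT), and Klrb1c was lower in every KO library. In WT libraries 6 of the 10 neutrophil markers were at 0. Autophagy gene values are therefore given with and without KO replicate 1 where they rest on it, and the part that other cells had in them was not tested. Leaving out KO replicate 1 did not remove the macrophage and monocyte markers from the KO group. In KO replicate 3, though, Vcam1 alone gave 11.2 of the 19.1 CPM (1.6 to 2.28 CPM in WT). Cd68 was lower in KO replicates 2 and 3, at 4.09 and 3.08 CPM, against 4.31 to 6.97 CPM in WT.

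KO and WT libraries were compared with the edgeR quasi-likelihood test over the 11658 genes that passed 1 CPM in 3 or more libraries, and a gene was called at an FDR, the Benjamini-Hochberg adjusted p, under 0.05. Of the autophagy genes 35 were tested, and 5 were called. Atg9a, Wipi1, Nbr1 and Tfeb were higher in KO Treg cells and Atg16l2 was lower. This was 14.3% of the tested autophagy genes, against 18.8% of all genes tested, of which 11.6% were called higher and 7.27% lower. Wipi1 passed the filter only through its KO libraries, so its direction was fixed once it was tested. Scaling by library size alone turned the split over all genes from 1350 higher and 847 lower to 1064 higher and 1201 lower, and left 3 autophagy genes higher and 1 lower. Without KO replicate 1 the test called 4 autophagy genes higher and 1 lower, with Wipi2 in the list and Wipi1 below the filter.

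All KO libraries exceeded all WT libraries for 11 autophagy genes (22.2% of all genes tested did so) and below for 3 (18.8% of all genes tested), so that 14 of 35 did not overlap, or 40.0% against 41.0% of all genes tested. The log2 fold change was positive for 24 of the 35, with a median of 0.16 against 0.02 over all genes tested, and 3 of these 24, Ambra1, Atg3 and Sqstm1, turned negative with scaling by library size alone. Of the 30 autophagy genes that were tested and not called, 20 had a 95% confidence interval wholly within 1.5-fold in either direction and 27 within 2-fold. The intervals of Atg4c, Map1lc3a and Optn reached beyond 2-fold. In bulk RNA a change in the share of cells that express a gene and a change in RNA per cell cannot be told apart.

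**Figure D1:**
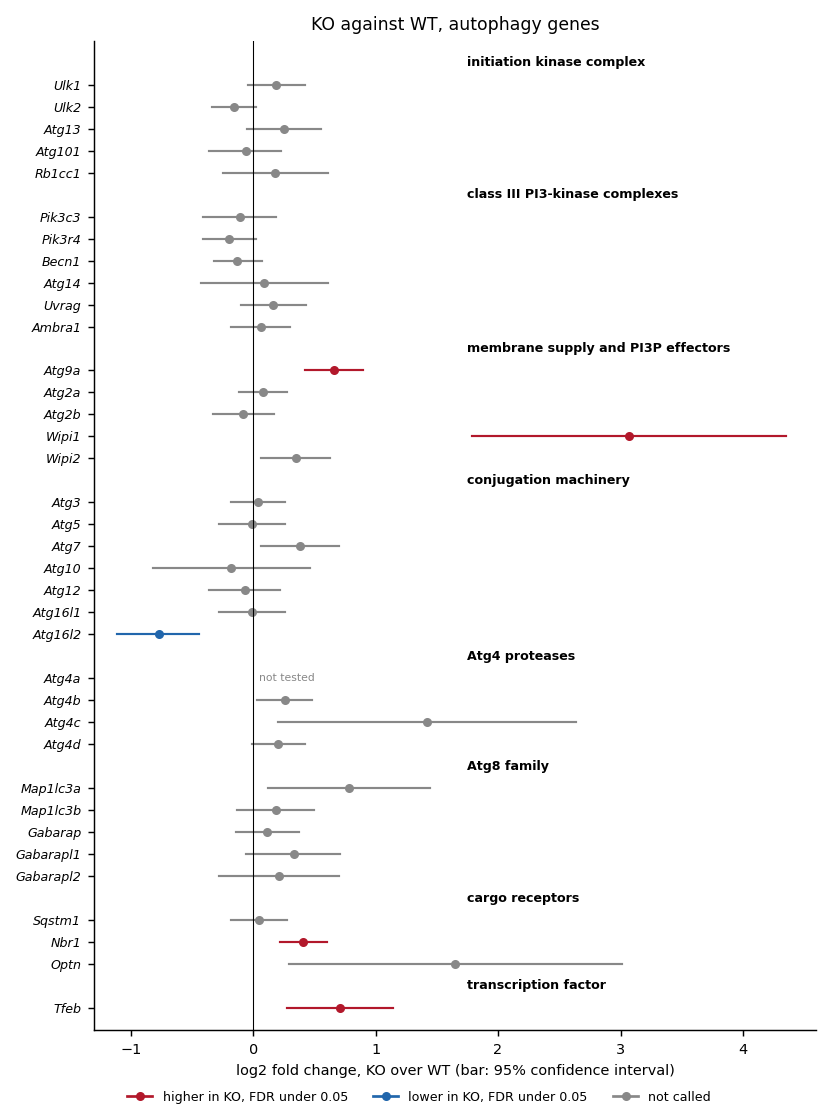
The log2 fold change of each autophagy gene, KO over WT (x axis), with its 95% confidence interval as a bar, in order of role (y axis). Red marks the 4 genes called higher, blue the 1 called lower and grey the 30 not called. Most grey bars cross 0, and Wipi1 has the largest value, at 3.07.

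Levels between genes are compared per kilobase of annotated exon. On the mean of the 6 libraries Gabarap was the most abundant autophagy transcript, at 89.5 CPM per kilobase, followed by the cargo receptors Sqstm1, at 67.5, and Nbr1, at 32.5, and by Ambra1, at 27.2. Among the tested autophagy genes the lowest were Wipi1, at 0.35 CPM per kilobase, Atg4c, at 0.696, and Optn, at 1.12. The untested gene Atg4a had 8, 10 and 7 counts in WT and 3, 13 and 5 counts in KO libraries. Its transcript shares 63.1% of its 51-base windows, the length of the reads, with other transcripts, most with the pseudogene Atg4a-ps, so its counts are uncertain.

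**Figure D2:**
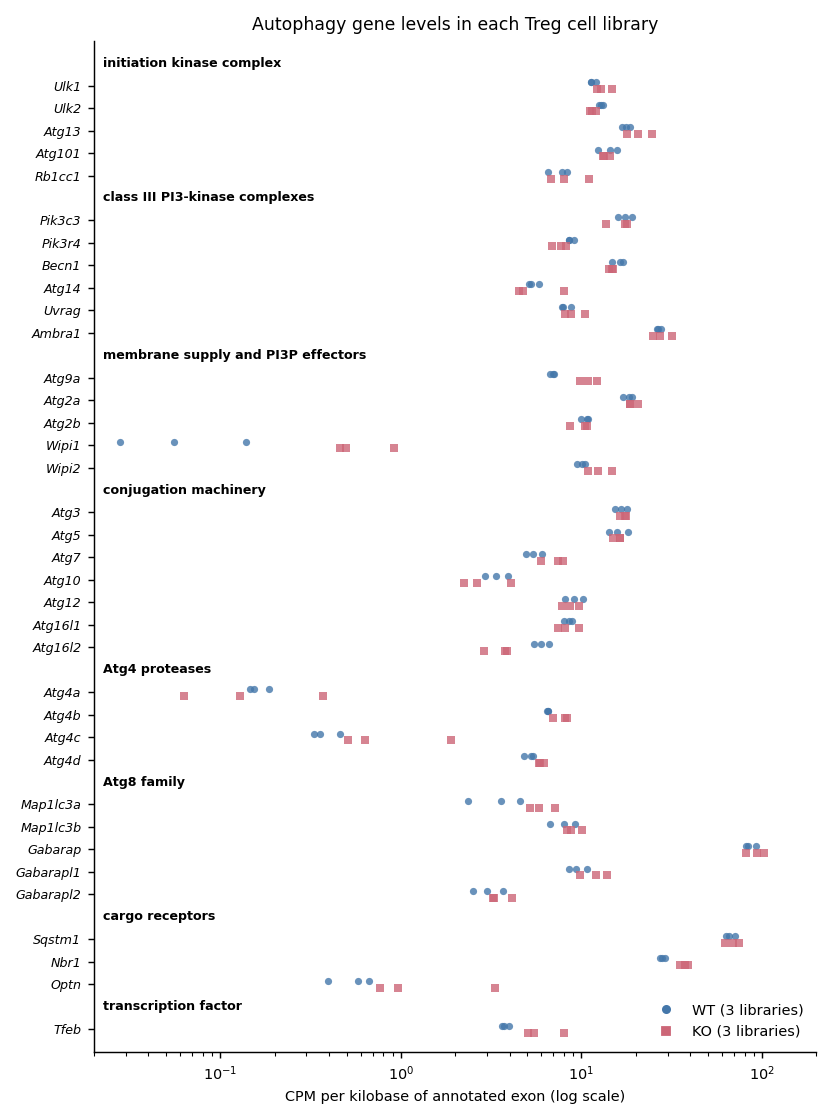
Level of each autophagy gene in every library as CPM per kilobase of annotated exon (log x axis), in order of role (y axis), with WT libraries as blue circles and KO libraries as red squares. Levels spread from Wipi1 and Atg4a at the low end to Gabarap at a mean of 89.5.

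None of the 5 genes of the initiation kinase complex was called, in edgeR or in DESeq2, and 0 had an unadjusted p under 0.05. DESeq2 called 24.7% of all genes tested, and the share of all genes at that unadjusted p was not counted, here and below. Ulk1, the kinase itself, averaged 75.2 ± 2.91 CPM in WT libraries and 86.0 ± 9.05 CPM in KO libraries (mean ± SD of n = 3, as below), and its paralog Ulk2 averaged 77.0 ± 2.05 and 69.0 ± 2.67 CPM. Libraries of the groups did not overlap for either, with log2 fold changes of 0.19 and -0.16 (FDR = 0.212 and 0.196 in edgeR). The scaffold genes Atg13, Atg101 and Rb1cc1, which encodes FIP200, had overlapping groups and log2 fold changes of 0.25, -0.06 and 0.18.

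The class III PI3-kinase complexes likewise held no called gene among 6 by either tool, and 0 had an unadjusted p under 0.05. The lipid kinase Pik3c3 (VPS34) averaged 78.3 ± 6.95 CPM in WT libraries and 72.6 ± 10.4 CPM in KO libraries, and Becn1, its regulatory partner, had 113 ± 8.19 and 104 ± 2.32 CPM. Pik3r4, the VPS15 subunit, was the 1 gene here whose KO libraries all lay below WT, at 74.0, 66.7 and 79.4 CPM against 82.7, 87.5 and 81.9 CPM (log2 fold change -0.20, FDR = 0.18). Atg14 and Uvrag, which direct the kinase to autophagosome formation or to endosomes, had log2 fold changes of 0.09 and 0.16, and Ambra1, a regulator of the complex, of 0.06. Becn1 shares 45.6% of its read-length windows with other transcripts, most with Cntd1 on the opposite strand, which counting without strand could not separate.

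Of the 5 genes for membrane supply and PI3P effectors 2 were called higher, against 11.6% of all genes tested. Among these 2, Wipi1 passed the filter only through its KO libraries and could be called only higher. Atg9a encodes the transmembrane scramblase of the vesicles that seed the autophagosome and lies on chromosome 1 (75180860 to 75192196, minus strand). It had 40.5, 38.7 and 40.2 CPM in WT and 62.3, 70.0 and 56.5 CPM in KO replicates 1 to 3. The WT libraries were within 2 CPM of each other and each KO library was above them, a log2 fold change of 0.66 (SE 0.10, FDR = 0.00664). Atg9a was called in all 6 fits that left out 1 library. Its exons share 42.6% of their read-length windows with other transcripts, most with Gm29253, a processed transcript on the same strand that has no row of its own in the matrix.

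Wipi1, which encodes a PI3P-binding effector and lies on chromosome 11 (109573331 to 109611967, minus strand), had 0.123, 0.246 and 0.609 CPM in WT and 4.05, 2.04 and 2.19 CPM in KO. These were 2, 6 and 11 counts against 73, 27 and 32 counts. The groups did not overlap, WT lay close to the counting floor and KO replicate 1 was the highest library. The fitted log2 fold change was 3.07 (SE 0.55, FDR = 0.0108). Without WT replicate 2 the FDR was 0.0642, and without any 1 KO library the gene no longer passed the filter on low values.

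Wipi2, the paralog that recruits Atg16l1 to the membrane, had 106, 110 and 99.5 CPM in WT and 115, 156 and 131 CPM in KO. Every KO library lay above WT, yet the gene was not called (log2 fold change 0.35, SE 0.12, FDR = 0.0866) unless KO replicate 1 was left out, which gave 0.43 with an FDR of 0.0301. The lipid transfer proteins Atg2a and Atg2b had overlapping groups, with log2 fold changes of 0.08 and -0.08.

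**Figure D3:**
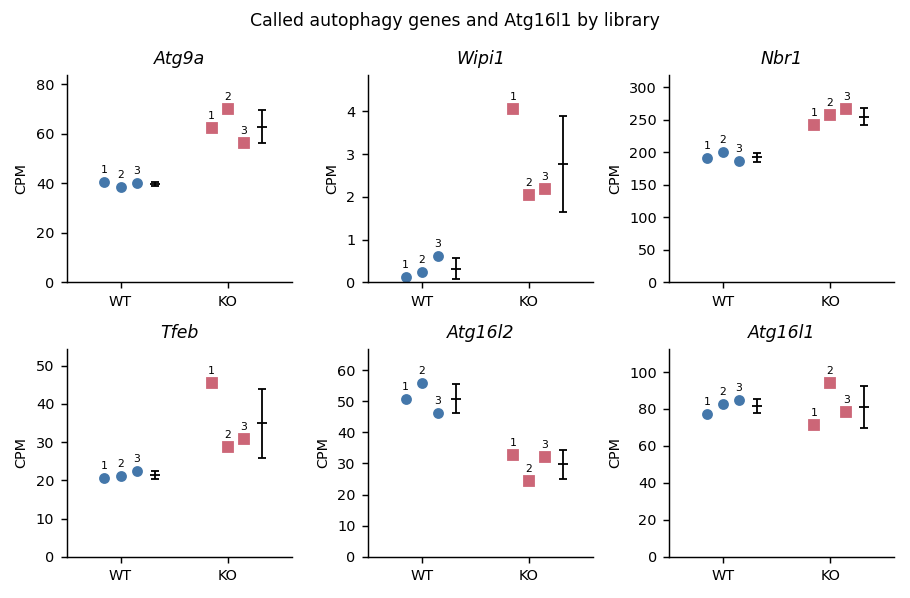
CPM (y axes from 0, each panel on its own scale) of the 5 called autophagy genes and Atg16l1 in every library, numbered by replicate, with the mean and SD (n = 3) in black beside each group. KO squares lie above WT circles for Atg9a, Wipi1, Nbr1 and Tfeb, below them for Atg16l2, and on both sides of them for Atg16l1.

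The conjugation machinery held the 1 lower call, or 14.3% of its 7 tested genes, against 7.27% of all genes tested. Atg16l2, a paralog of Atg16l1 on chromosome 7 (101263034 to 101302251, minus strand), had 50.8, 55.7 and 46.1 CPM in WT and 32.7, 24.4 and 32 CPM in KO. Each KO library was below each WT library, and the log2 fold change was -0.77 (SE 0.14, FDR = 0.0116). Without WT replicate 2 it was -0.71 with an FDR of 0.0615, and the other 5 fits that left out a library kept the call.

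Atg16l1 directs the Atg12-Atg5 conjugate to the membrane where LC3 is lipidated, and lies on chromosome 1 (87755870 to 87792428, plus strand). It had 77.3, 82.6 and 85 CPM in WT and 71.4, 93.8 and 78.4 CPM in KO. The WT libraries fell inside the range of the KO libraries. Its log2 fold change was -0.01 (SE 0.12, 95% confidence interval -0.28 to 0.26, FDR = 0.967), and it lay between -0.12 and 0.06 when each library was left out in turn. The remaining genes of the group were not called. Atg7, the E1-like enzyme of both conjugation systems, averaged 38 ± 3.89 CPM in WT libraries and 49.6 ± 7.19 CPM in KO libraries, with overlapping libraries (log2 fold change 0.38, FDR = 0.0931). The E2-like enzymes Atg3 and Atg10 and the conjugate partners Atg5 and Atg12 had log2 fold changes of 0.04, -0.18, -0.01 and -0.07.

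The Atg4 proteases process Atg8 proteins and release them from membranes. All 3 that were tested had KO libraries above WT libraries, as did 22.2% of all genes tested. None of the 3 was called in edgeR or DESeq2, with 2 at an unadjusted p under 0.05. Atg4b had 53.4, 54.2 and 54.0 CPM in WT and 57.7, 66.8 and 68.6 CPM in KO (log2 fold change 0.26, SE 0.09, FDR = 0.10). Atg4d had 38.4, 35.1 and 39.2 CPM in WT and 44.8, 42.9 and 42.1 CPM in KO (log2 fold change 0.20, SE 0.09, FDR = 0.16), with 18.1% of its read-length windows shared, most with Kri1 on the opposite strand. Atg4c had 1.54, 1.19 and 1.11 CPM in WT and 6.33, 2.12 and 1.71 CPM in KO. Here KO replicate 1 exceeded the other KO libraries by over 2-fold, and the log2 fold change was 1.42 with it (FDR = 0.0995) and 0.57 without it.

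The Atg8 family, the proteins that coat the membrane and bind cargo receptors, had 5 positive log2 fold changes and no call in edgeR or DESeq2, with 1 gene at an unadjusted p under 0.05. Map1lc3a, an LC3 gene, had 2.77, 4.22 and 5.42 CPM in WT and 6.83, 8.40 and 6.16 CPM in KO, without overlap (log2 fold change 0.78, SE 0.28, FDR = 0.095). Map1lc3b averaged 59.8 ± 9.34 CPM in WT libraries and 68.1 ± 6.66 CPM in KO libraries, and Gabarap had 158 ± 10.6 and 171 ± 20.1 CPM. Gabarapl1 and Gabarapl2, which share 18.6% and 16.9% of their read-length windows with other transcripts, had log2 fold changes of 0.33 and 0.21. Apart from Map1lc3a, the groups overlapped for each of these genes.

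Among the cargo receptors, Nbr1, which links ubiquitinated cargo to Atg8 proteins and lies on chromosome 11 (101552149 to 101581951, plus strand), had 191, 200 and 186 CPM in WT and 241, 257 and 266 CPM in KO. The lowest KO library was above the highest WT library, at a log2 fold change of 0.41 (SE 0.08, FDR = 0.0158). It stayed between 0.36 and 0.43 when a library was left out, and the call was lost without WT replicate 1, 2 or 3 (FDR = 0.0704, 0.0647 and 0.0796) or KO replicate 3 (0.0553). Sqstm1 (p62), the related receptor, had 219, 212 and 238 CPM in WT and 232, 251 and 208 CPM in KO. Its groups overlapped in full, at a log2 fold change of 0.05 (SE 0.10, FDR = 0.767). Sqstm1 shares 20.3% of its read-length windows, most with Mrnip on the opposite strand.

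Optn, the receptor optineurin, had 2.16, 1.48 and 2.49 CPM in WT and 12.5, 2.88 and 3.63 CPM in KO. Every KO library was above WT and replicate 1 far above the others, the library with the highest macrophage and neutrophil markers. Its log2 fold change was 1.65 (SE 0.58, FDR = 0.0885), or 0.67 without that library. Optn and Atg4c were the 2 autophagy genes, of 35, in which KO replicate 1 exceeded each other KO library by over 2-fold.

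Tfeb encodes a transcription factor that activates lysosome and autophagy genes and lies on chromosome 17 (47737030 to 47792419, plus strand). It had 20.5, 21.2 and 22.5 CPM in WT and 45.3, 28.6 and 30.8 CPM in KO. All KO libraries exceeded all WT libraries and replicate 1 was again the highest, at a log2 fold change of 0.71 (SE 0.18, FDR = 0.0367). Without KO replicate 1 it was 0.46 and still called (FDR = 0.0375). The call was lost without WT replicate 1, 2 or 3 (FDR = 0.12, 0.13 and 0.102) or KO replicate 3 (0.0554), and with scaling by library size alone (0.0528) or no filter on low values (0.0538).

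The seed matches were then set beside these values. Of the 7 autophagy genes with a miR-142-3p or shifted match, 6 had all KO libraries above all WT libraries, and the exception was Atg16l1. Nbr1 and Wipi1 were called higher, and the 7 had a median log2 fold change of 0.35. Wipi1, at 0.123 to 0.609 CPM in WT, passed the filter only through its KO libraries, so it could enter these counts only as higher. Atg4c, at 1.11 to 1.54 CPM in WT, also lay close to the filter. Of the 28 without such a match, 5 had KO above WT and 3 below, and their median was 0.08. Over all tested genes with an annotated 3′ UTR, KO lay above WT for 35.1% of the 1555 with a match and for 20.6% of the 9554 without, the medians were 0.17 and 0.00, and 21.7% and 10.2% were called higher. Leaving out KO replicate 1 kept the count at 6 of 7, against 41.0% of all genes with a match, on the genes tested with all libraries. Wipi1, 1 of these 6, fell below the filter without KO replicate 1. The 3′ UTRs with a match were also longer, with a median of 2460 bases against 1030 over all genes and 1900 against 1220 among the autophagy genes, and the part of length was not tested. Which 3′ UTR isoform these Treg cells express was not measured.

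The site sequences printed above show that the 3 Atg4 genes and Atg16l1 share 1 form of site, in which the seed match and the shifted match overlap. Nbr1 has the shifted motif alone, Wipi1 the seed match alone, and Wipi2 has each at separate places. Genes with the same form of site had different values, from -0.01 for Atg16l1 to 1.42 for Atg4c on the log2 scale, of which Atg4c was not called (FDR = 0.0995) and came to 0.57 without KO replicate 1.

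**Figure D4:**
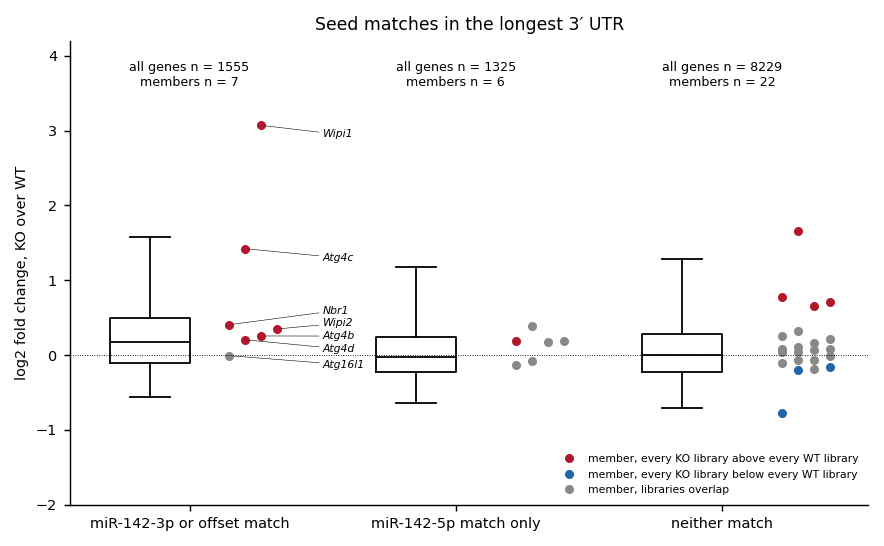
The log2 fold change (y axis) of all tested genes with a 3′ UTR, as boxes (median and quartiles, whiskers from the 5th to the 95th percentile), and of the autophagy genes, as points, by seed match in the longest 3′ UTR (x axis). Points are red where all KO libraries exceeded all WT libraries, blue where all lay below and grey where they overlapped. Of the 7 named genes in the first column, 6 are red, among them Wipi1, which passed the filter only through its KO libraries.

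For the miR-142-5p seed, a match was present in 7 autophagy genes, namely Rb1cc1, Atg16l1, Becn1, Atg2b, Ulk1, Atg7 and Map1lc3b. The Atg16l1 site is shown because this gene holds matches to both products.
Atg16l1, chr1:87792181-87792187, plus strand: cttactttgcACTTTATtttttgcttc
None of these 7 was called in edgeR or DESeq2 (1, Atg7, had an unadjusted p under 0.05) and 1, Ulk1, had every KO library above WT. Over all tested genes with this match 22.9% had KO above WT and 13.1% were called higher.

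Because Tfeb was called higher, promoters were searched for TCACGTG on both strands, the core of the motif that TFEB and other factors of its type bind. RefSeq promoters of GRCm38.p6, 250 bases before to 50 after the annotated start, were matched for 30 of the 36 autophagy genes. Atg3, Atg7 and Atg14 held the motif, 3 of 30, against 4.29% of all 27025 genes with a promoter. The sites are shown on the strand of the gene, with the motif, or its reverse complement, in capitals.
Atg3, chr16:45158734-45158740, plus strand: gcctccttttgTCACGTGtcctgggagag
Atg3, chr16:45158757-45158763, plus strand: ggagagtcgagTCACGTGaggccttaggt
Atg7, chr6:114670963-114670969, plus strand: catattggtggTCACGTGtgcagtaagtg
Atg14, chr14:47568429-47568435, minus strand: aaacaaaatccCACGTGActggccctgag
None of the 3 genes was called in edgeR or DESeq2, and Atg7 alone had an unadjusted p under 0.05. In the lysosomal list read below, the 11 tested genes with the motif had 0 higher and 1 lower (median log2 fold change 0.13). The other 23, which may include genes with no matched promoter, had 6 higher and 0 lower (median 0.91). Over all the further lists 3 of 30 with the motif and 18 of 116 others were higher. The part of Tfeb was not tested.

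Genes that act around the core machinery were read from 7 lists with 158 genes, of which 157 had a row and 146 were tested. The test called 21 higher and 2 lower, 15.8% of those tested against 18.8% of all genes. The median log2 fold change of all 146 was 0.20.

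The list on mTORC1, AMPK and nutrient sensing holds mTORC1, which restrains the Ulk kinases when amino acids are plentiful, and also inhibitors of mTORC1 such as Akt1s1. It had 7 of 36 tested genes higher and none lower, or 19.4% called against 18.8% of all genes tested. The 3 with the smallest p were Rragd, Rraga and Akt1s1. Rragd, a Rag GTPase that brings mTORC1 to the lysosome, had 34.0, 27.8 and 29.6 CPM in WT and 89.9, 119 and 133 CPM in KO (log2 fold change 1.90, SE 0.16, FDR = 0.000996). Rraga, its Rag partner, had 47.5, 44.8 and 43.5 CPM in WT and 82.4, 82.0 and 79.5 CPM in KO (log2 fold change 0.85, SE 0.08, FDR = 0.00129). Akt1s1, which encodes the mTORC1 inhibitor PRAS40, had 23.8, 22.6 and 24.1 CPM in WT and 44.8, 50 and 41.5 CPM in KO (log2 fold change 0.95, SE 0.11, FDR = 0.00231). KO replicate 1 was not the highest library for Rragd or Akt1s1, and the 3 genes were called in all 6 fits that left out a library. Mtor itself had overlapping groups, with a log2 fold change of 0.10. The count of higher genes was 4 with RLE size factors, with library size alone or with no filter, and 5 without KO replicate 1.

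Lysosomal hydrolases and membrane proteins had 6 of 34 tested genes higher and 1 lower, or 20.6% called against 18.8% of all genes tested. Npc1, the cholesterol exporter of the lysosome, had 93.1, 82.4 and 89.8 CPM in WT and 167, 160 and 159 CPM in KO (log2 fold change 0.87, SE 0.08, FDR = 0.00129). Scarb2, the receptor that carries glucocerebrosidase to lysosomes, averaged 76.7 ± 3.58 CPM in WT libraries and 144 ± 13.5 CPM in KO libraries, and the peptidase gene Tpp1 had 95.1 ± 4.19 and 139 ± 11.2 CPM, with log2 fold changes of 0.91 and 0.55. Sgsh, the sulfamidase, was lower, at 46.1 ± 4.84 CPM in WT and 27.0 ± 3.44 CPM in KO (log2 fold change -0.77). This list moved with KO replicate 1: it exceeded each other KO library by over 2-fold for 15 of the 34 genes, among them Ctsb, Psap and Lgmn. Of these 15 genes 1 was called, Ctsz, at 63.4, 51.5 and 51.9 CPM in WT and 260, 91.8 and 104 CPM in KO (log2 fold change 1.45, FDR = 0.0394). Leaving the library out raised the calls to 12 higher and 2 lower of 33 tested, in a fit that called 17.3% of all genes tested, 1107 higher and 868 lower. The macrophage and monocyte markers still summed to 79.3 and 19.1 CPM in KO replicates 2 and 3, against 7.76 to 11.6 CPM in WT. Vcam1 alone gave 35.1 and 11.2 CPM of these KO sums, against 1.6 to 2.28 CPM in WT, while Cd68 was lower in both than in WT. Npc1, Scarb2 and Tpp1 were called in all 6 fits that left out a library, while Sgsh was lost without WT replicate 2 (FDR = 0.0529).

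V-ATPase subunits, which acidify the lysosome, had 3 of 17 tested genes higher and none lower, or 17.6% called against 18.8% of all genes tested. Atp6v1e1 had 50.8, 49.3 and 50.7 CPM in WT and 94.7, 85.3 and 84.9 CPM in KO (log2 fold change 0.81, SE 0.08, FDR = 0.00176) and kept its call in each fit that left out a library. Atp6v0a1 averaged 18.8 ± 2.78 CPM in WT libraries and 41.7 ± 14.8 CPM in KO libraries, and Atp6v0d1 had 51 ± 1.63 and 70.2 ± 11.4 CPM, with KO replicate 1 the highest library for both. Atp6v0a1 was not called without any 1 WT library, with an FDR of up to 0.0935, and Atp6v0d1 was called only without KO replicate 2 among the 6 such fits.

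In the accessory initiation and membrane factors, 3 of 15 tested genes were higher and none lower, or 20% called against 18.8% of all genes tested. Sh3glb1 (Bif-1), a membrane-bending partner of Uvrag, averaged 160 ± 4.76 CPM in WT libraries and 232 ± 12.3 CPM in KO libraries (log2 fold change 0.54, SE 0.08, FDR = 0.0056). Vmp1, a scramblase of the endoplasmic reticulum, had 70.4 ± 5.76 and 123 ± 20.9 CPM, and Wdr45b, a WIPI family gene, had 39.3 ± 7.31 and 57.3 ± 3.32 CPM, with log2 fold changes of 0.80 and 0.54. Sh3glb1 was called without each library in turn, Vmp1 in 4 of the 6 such fits and Wdr45b in 1.

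Selective receptors and mitophagy genes had 1 higher and 1 lower of 18, or 11.1% called against 18.8% of all genes tested. The mitophagy receptor gene Bcl2l13 averaged 74.1 ± 3.61 CPM in WT libraries and 94.2 ± 4.02 CPM in KO libraries (log2 fold change 0.34, FDR = 0.0277). Fam134b, which encodes the endoplasmic reticulum phagy receptor also named Retreg1, had 147, 217 and 188 CPM in WT and 94.4, 121 and 93.3 CPM in KO, without overlap (log2 fold change -0.84, SE 0.17, FDR = 0.016). Fam134b was called in 3 of the 6 fits that left out a library and Bcl2l13 in 2. Among the 16 tested genes of autophagosome-lysosome fusion, the SNARE gene Ykt6 alone was called, at 86.5 ± 9.17 CPM in WT and 115 ± 11.5 CPM in KO (log2 fold change 0.41, FDR = 0.0452), and in none of the fits that left out a library (FDR from 0.0532 to 0.171).

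None of the 10 tested transcription factors listed beside Tfeb was called in edgeR. The Tfeb relatives Tfe3 and Mitf had log2 fold changes of 0.22 and 1.02, the latter with 11 CPM in KO replicate 1 and 2.71 to 4.16 CPM in the other libraries. Of the Foxo genes, whose products activate autophagy genes, Foxo1 and Foxo3 had log2 fold changes of -0.37 and -0.24 with overlapping groups. Foxo4 had 89, 85.4 and 94.2 CPM in WT and 108, 138 and 107 CPM in KO, without overlap (log2 fold change 0.40, FDR = 0.0567). At an unadjusted p under 0.05 the list held 3 genes, Foxo1, Foxo4 and Myc, and the share of all genes at that threshold was not counted. DESeq2 called 1 gene of the list higher, while it called 24.7% of all genes tested in either direction.

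**Figure D5:**
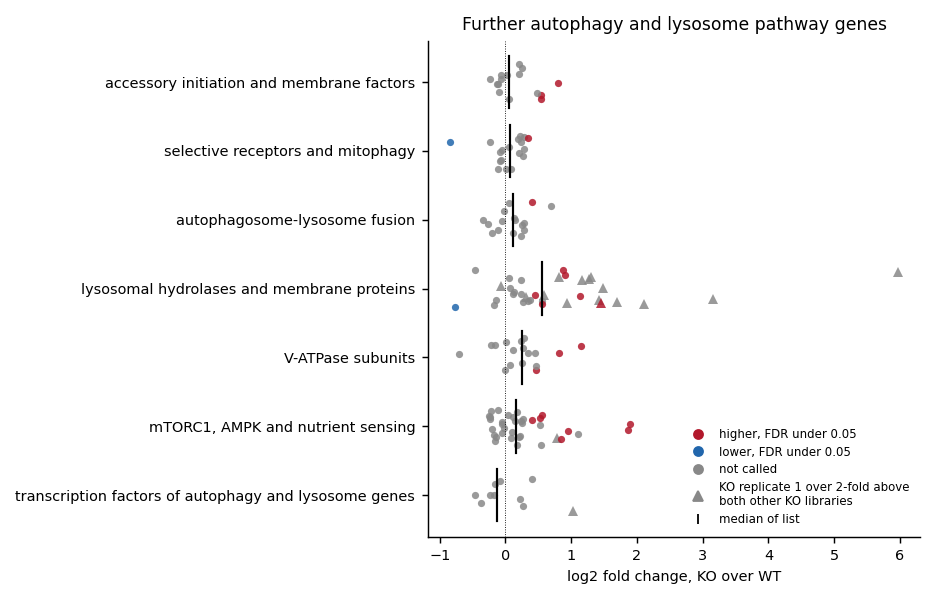
The log2 fold change, KO over WT (x axis), of every tested gene in the 7 lists around the core machinery (y axis), with calls in red (higher) and blue (lower), other genes in grey and the median of each list as a bar. Triangles mark genes in which KO replicate 1 exceeded each other KO library by over 2-fold, and 15 of them are in the lysosomal list.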

How the data were processed

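RNA-seq was made from splenic CD4+YFP+ Treg cells of 3 WT and 3 KO mice with a kit that does not mark strand. Single-end reads of 51 bases were mapped by the authors to mm10 with HISAT and assigned to genes with featureCounts in its unstranded mode, and the deposited values are raw counts that were not normalized. The gene annotation used for counting is not given in the sources used here. All 6 columns were used, and groups and replicate numbers were taken from the labels.

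After a filter of CPM above 1 in 3 or more libraries, KO was compared with WT in edgeR 4.0.16 under R 4.3.3 (TMM, quasi-likelihood F test, FDR threshold 0.05 over all genes tested). DESeq2 1.42.0 was an alternative. With 3 libraries against 3 an exact two-sided permutation test cannot go below 0.1, so p-values come from the model fitted across all genes. CPM, SD and the floor of 3 counts were computed from the deposited counts, and the floor covers counting error only. Exon lengths, positions and 3′ UTRs came from GENCODE vM21, miRNAs and promoters from RefSeq. Total counts per library were 13883069 to 24042994. The fits were tried on simulated counts with the same dispersion for all genes. No simulated library stood apart as KO replicate 1 did, so that case was not tested.

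The 36 autophagy genes, the 7 further lists and the marker lists were chosen with earlier results of these data known. Named genes were all 36 members, with every library for those called and for Atg16l1, and, in each further list, up to 3 called genes per direction with the smallest p whose KO libraries all lay on 1 side of WT. Mtor, Ctsb, Psap, Lgmn, Ctsz, Tfe3, Mitf, Foxo1, Foxo3, Foxo4 and Myc were named after their values were seen. In the further lists 6 genes were matched by synonym and 1 had no match. Alternatives covered scaling, test, filter, a replicate block, 3′ UTR choice and leaving out each library. The counts of non-overlapping genes without KO replicate 1 were added after seeing the data.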

Additional observations from a re-analysis of the deposited data

How the results depend on the processing

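Single-gene calls at 3 libraries per group were sensitive to leaving out a library. Over the 6 such fits the number of genes called ranged from 691 to 2340 (2197 with all libraries), lowest without WT replicate 2, at 691, without WT replicate 3, at 790, and without WT replicate 1, at 1022. Fewer samples entered each of these fits. Autophagy genes called higher ranged from 1 to 4 and called lower from 0 to 1, and calls in the 7 further lists from 9 to 29 (23 with all libraries). With no filter on low values those lists had 15 calls among more genes tested. The log2 fold change of Atg16l1 ranged from -0.118 to 0.0598. Signs near 0 turned for genes that were not called: with library size alone Ambra1 was -0.0165, Atg3 -0.033 and Sqstm1 -0.0321, and leaving out a library gave ranges of -0.0265 to 0.124 for Ambra1, -0.155 to 0.016 for Atg101, -0.176 to 0.0153 for Atg12, -0.212 to 0.215 for Atg14, -0.153 to 2.91e-05 for Atg2b, -0.0375 to 0.099 for Atg3, -0.115 to 0.0824 for Atg5, -0.0321 to 0.305 for Rb1cc1 and -0.0119 to 0.0986 for Sqstm1. The cause was not tested. DESeq2 called 6 autophagy genes, the 5 of edgeR and Optn (FDR = 0.0228), and 24.7% of all genes tested. The number of autophagy genes with a miR-142-3p match was 6 in the longest 3′ UTR and 7 over all annotated 3′ UTRs.

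The replicate numbers did not pair the samples, with correlations of 0.0731, -0.0124 and -0.188 between same-numbered libraries. With a block on replicate number 1606 genes were called, 3 autophagy genes higher and 1 lower, and 17 genes of the further lists, with Tfeb no longer called (log2 fold change 0.677, FDR = 0.0584).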
